A study of Homo sapiens with 21 samples.

Results

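Transcripts of the mitochondrial carriers, the proteins that move metabolites across the inner mitochondrial membrane, were followed in HCT-116 cells given extracellular vesicles (EVs) from human serum. The carriers were taken by name, as the protein-coding genes on primary chromosomes with an SLC25A symbol together with UCP2, UCP3, MPC1 and MPC2. This gave 52 of the 65065 genes in the count table. HCT-116 is an established line of epithelial-like human colorectal carcinoma cells, kept here in medium whose serum had been depleted of exosomes. EVs are membrane-bound particles that cells release, and these had been isolated by a method named GlyExo-Capture. HCC+ EVs came from the serum of patients with HCC and HCC- EVs from the serum of healthy people, each given at 0.048, 0.24 or 1.2 mg/mL, and blank cells received no EVs (0 mg/mL). Each of the 7 groups had 3 libraries of poly(A) RNA, 21 in all, and since neither separate cultures nor the number of serum donors is stated, the p-values measure the spread between these libraries, which may be technical.

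Most SLC25 proteins share a fold of repeated pairs of membrane helices and exchange a metabolite of the matrix for one of the cytosol. ADP/ATP and phosphate carriers feed ATP synthase, carboxylate and aspartate/glutamate carriers link the tricarboxylic acid cycle to the cytosol and pass on reducing equivalents, and others bring in cofactors, iron and glutathione. The uncoupling proteins belong to the same family, while MPC1 and MPC2 are of another family and together form the carrier that brings pyruvate into the matrix.

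Levels are given in CPM, counts divided by the library total and its TMM factor, and compared between genes in CPM per kb of annotated exon. A gene was called where the Benjamini-Hochberg adjusted p of edgeR's quasi-likelihood test was under 0.05 across the 19556 genes tested, and ± after a log2 fold change is its standard error (SE). The libraries held 31.22 to 64.01 M (mega) counts. On the first principal component, which held 34.6% of the variance, the 6 libraries at 1.2 mg/mL lay between -87.6 and -25.5 and the others between 12.3 and 31.6. TMM factors were 1.03 to 1.06 for HCC+ and 1.16 to 1.17 for HCC- at 1.2 mg/mL, and 0.94 to 0.98 elsewhere. All 6 epithelial markers were detected in each group, with summed levels of 4070 to 4390 CPM with HCC+ EVs at 1.2 mg/mL, 3550 to 3840 CPM with HCC- EVs and 3760 to 4580 CPM in blank cells. Single markers went both ways, and with HCC- EVs 1 was called higher and 3 lower than blank, beside 24.8% and 28.5% of all genes. In the order above CLDN4 stood at 223, 326 and 115 CPM, KRT8 at 2260, 1870 and 2260 CPM and EPCAM at 269, 243 and 301 CPM. Leukocyte, endothelial and fibroblast markers were low, but their sums stood above the blank at 1.2 mg/mL. The 6 leukocyte markers summed to 3.24 to 4.62 CPM with HCC+ EVs, 5.75 to 8.14 CPM with HCC- EVs and 1.62 to 1.82 CPM in blank cells. CD3E was at 0 with HCC- EVs and in blank cells. PTPRC went the other way, at 0.0207 CPM with HCC+ EVs, 0.0448 CPM with HCC- EVs and 0.0556 CPM in blank cells. HLA-DRA had the highest level of the 6, at 2.62, 3.38 and 1.15 CPM in that order. The 2 endothelial markers summed to 2.58 to 3.28, 5.61 to 7.81 and 0.44 to 0.591 CPM in the same groups, while PPBP and PF4, the platelet markers, were at 0 in each. In the same order the 2 fibroblast markers summed to 21.3 to 30.8, 28.5 to 34.5 and 14.2 to 17.7 CPM, with COL3A1 at 0 in blank cells, and the 3 liver markers to 3.08 to 3.48, 2.18 to 3.25 and 1.86 to 2.29 CPM. For the 4 erythroid markers the sums were 0.159 to 0.63, 0.117 to 0.41 and 0.0492 to 0.0749 CPM. The part of such RNA in the changes below was not tested, and in bulk RNA fewer cells of a type and less RNA per cell cannot be told apart.

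Per kb of annotated exon, carriers of ADP/ATP, glutathione and phosphate had the highest levels in blank cells. Their order depends on that length, which is 8896 bases for SLC25A3 and 1555 for SLC25A5. In CPM alone SLC25A3 was highest in blank cells, at 892, against 487 for SLC25A5 and 357 for SLC25A39. SLC25A5, the ADP/ATP carrier ANT2, stood at 313 CPM per kb, SLC25A6 (ANT3) at 184, the glutathione carrier SLC25A39 at 101, the phosphate carrier SLC25A3 at 100 and the citrate carrier SLC25A1 at 62.9 CPM per kb. Of the 52 carriers, 49 had enough counts to be tested, and among these SLC25A32 (0.0656 CPM per kb), SLC25A18 (0.117) and SLC25A34 (0.126) were lowest. The other 3 carriers were close to undetected, with 31 counts over all libraries for SLC25A31, the ADP/ATP carrier of germ cells, 15 for SLC25A47 and 12 for SLC25A2. SLC25A32 has 80.8% of its exon bases under other annotated genes, so its low level is uncertain. SLC25A5, SLC25A6, SLC25A3 and SLC25A15 have near-identical copies or pseudogenes elsewhere, and the handling of such reads is not given in the sources used here.

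At 1.2 mg/mL the carriers moved most with HCC- EVs, and most of those that moved fell (24 of 35 calls). With library totals as the only scaling they had 16 lower and 17 higher calls, beside 3097 and 8128 of all 19556 genes. The counts that follow are with TMM factors. With HCC+ EVs 6 carriers were called higher and 9 lower than in blank cells, 30.6% of the 49 tested, beside 33% of all genes tested. With HCC- EVs 11 were called higher and 24 lower than in blank cells, 71.4% beside 53.3% of all genes. The lower calls made up 49% of the carriers and 28.5% of all genes, and the higher calls 22.4% and 24.8%. In the direct comparison of HCC+ with HCC- EVs, 24 carriers were higher with HCC+ EVs and 6 lower, 49% and 12.2% of the carriers beside 22.6% and 12.7% of all genes. So with HCC+ EVs the called share was near that of all genes, and with HCC- EVs and between the sources it was above it. The genes tested were not matched to the carriers by level or gene type. A call is easier to reach with more counts, and the part of level in these shares was not tested. The 2 comparisons with the blank use the same 3 blank libraries, and all 3 comparisons share groups.

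**Figure D1:**
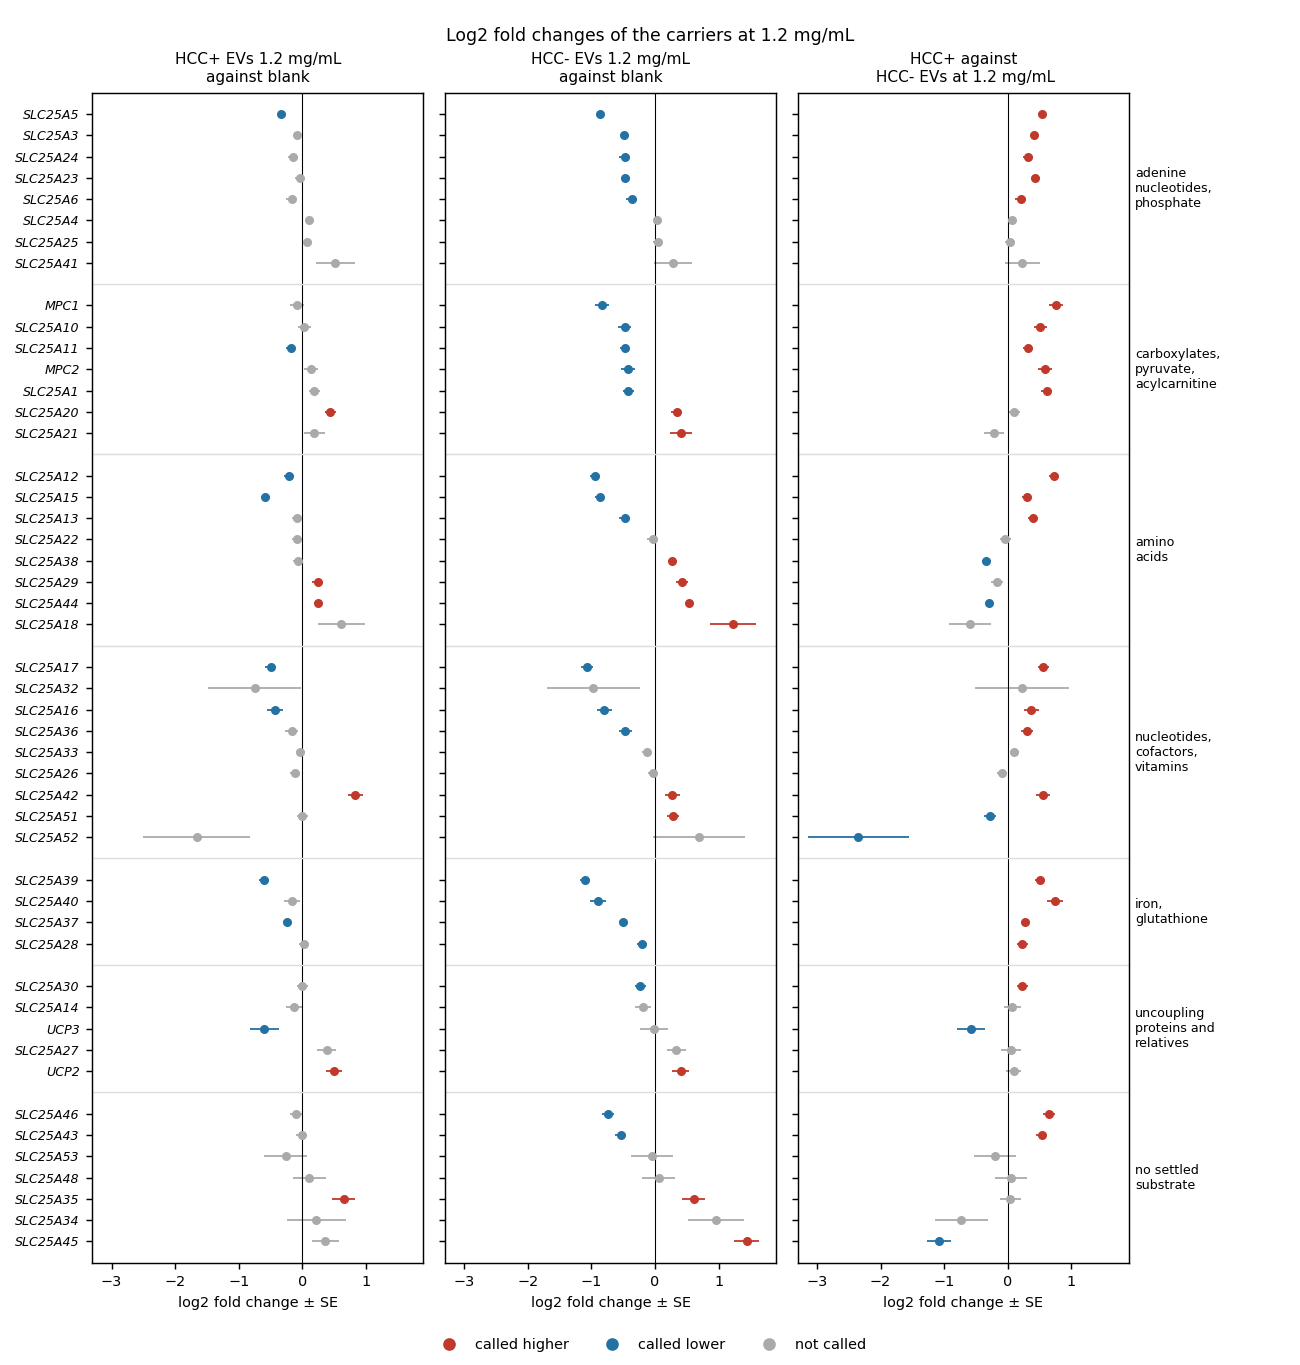
Log2 fold change ± SE of the carriers for HCC+ against blank, HCC- against blank and HCC+ against HCC- EVs at 1.2 mg/mL, by role. Red points were called higher, blue points lower and grey points not called, all with TMM factors; blue points prevail for HCC- EVs against blank, and 24 carriers are red for HCC+ against HCC- EVs.

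The median log2 fold change of the carriers was -0.07 with HCC+ EVs and -0.21 with HCC- EVs against blank, and 0.23 for HCC+ against HCC- EVs, where all tested genes had 0.01, 0.05 and 0.01. With library totals as the only scaling, the median of all genes moved by 0.12, 0.28 and -0.16 in these comparisons and the family's medians against blank became 0.05 and 0.07, so the direction of the family depends on the scaling. Relative to all genes the carriers' median was -0.09, -0.26 and 0.22 under either scaling. The calls divided as 9 higher and 5 lower, 17 and 16, and 15 and 8 with total counts alone, in place of 6 and 9, 11 and 24, and 24 and 6. Of all 19556 genes, total counts alone called 4657 higher and 2069 lower, 8128 and 3097, and 2342 and 4572. That scaling ended the calls against blank of SLC25A11, SLC25A12, SLC25A37 and UCP3 with HCC+ EVs and of SLC25A1, SLC25A6, SLC25A10, SLC25A28, SLC25A30, SLC25A36 and MPC2, among others, with HCC- EVs. Between the sources it ended those of SLC25A6 (0.04), SLC25A11 (0.14), SLC25A15 (0.13), SLC25A16 (0.20), SLC25A24 (0.16), SLC25A28 (0.06), SLC25A30 (0.07), SLC25A36 (0.14) and SLC25A37 (0.11). With GC and length trends removed, the calls in these comparisons divided as 8 higher and 11 lower, 10 and 24, and 25 and 6. Of all genes 37%, 55.8% and 40.4% were then called. That setting ended some calls, given below, and added others. With HCC+ EVs against blank it added SLC25A4 (0.14), SLC25A6 (-0.25), SLC25A22 (-0.28), SLC25A23 (-0.16), SLC25A27 (0.56) and MPC2 (0.29). Leaving out each library of a comparison in turn, with TMM factors, 10 of the 15 calls with HCC+ EVs, 29 of the 35 with HCC- EVs and 22 of the 30 between the sources held throughout, and the exceptions are given with each role group. Without HCC+ replicate 1 the lower calls of HCC+ EVs against blank numbered 5 in place of 9, and without HCC- replicate 2 those of HCC+ against HCC- EVs numbered 3 in place of 6.

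Placed side by side, 8 carriers were lower than blank with both sources and higher with HCC+ than with HCC- EVs: SLC25A5, SLC25A11, SLC25A12, SLC25A15, SLC25A16, SLC25A17, SLC25A37 and SLC25A39. Another 15 were called lower with HCC- EVs and higher with HCC+ than with HCC- EVs, with no call for HCC+ EVs against blank. SLC25A42 was higher in all 3 comparisons. SLC25A20, SLC25A29, SLC25A35 and UCP2 were higher than blank with both sources, with no call between the sources. SLC25A44 was higher than blank with both sources and lower with HCC+ than with HCC- EVs, and SLC25A38, SLC25A45 and SLC25A51 were called higher only with HCC- EVs against blank and lower in the direct comparison.

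Among the adenine nucleotide and phosphate carriers, 5 of 8 tested were lower than blank with HCC- EVs and 1 with HCC+ EVs, and 5 were higher with HCC+ than with HCC- EVs. SLC25A5 (chrX:119468422-119471396 on GRCh38) stood at 377, 381 and 393 CPM in the HCC+ libraries, 267, 275 and 258 CPM in the HCC- libraries and 506, 481 and 473 CPM in the blank libraries. The 3 groups did not overlap, with HCC- EVs lowest. Its log2 fold change was -0.34 ± 0.05 with HCC+ EVs (adjusted p = 5.29e-06) and -0.87 ± 0.05 with HCC- EVs (adjusted p = 7.71e-15), and 0.53 ± 0.05 for HCC+ against HCC- EVs (adjusted p = 2.47e-09). SLC25A3 (chr12:98593591-98606379), which brings in the phosphate for ATP synthesis, had 806, 870 and 854 CPM with HCC+ EVs, 638, 664 and 602 CPM with HCC- EVs and 932, 894 and 852 CPM in blank cells. Its HCC- libraries lay below all others of these groups, at -0.49 ± 0.05 against blank (adjusted p = 1.47e-09), while its HCC+ libraries overlapped the blank at -0.08 ± 0.05 (adjusted p = 0.236).

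SLC25A6 had 265, 239 and 258 CPM with HCC+ EVs, 214, 220 and 230 CPM with HCC- EVs and 270, 337 and 250 CPM in blank cells. The HCC- libraries were the lowest, at -0.37 against blank (adjusted p = 0.000169), and the call for HCC+ against HCC- EVs, at 0.20, held without HCC+ replicate 2 (0.23) and ended in the other 5 fits with a library left out (0.17 to 0.22). SLC25A4 (ANT1), the ADP/ATP carrier prominent in heart and muscle, had no call, at 55.8 ± 0.948 CPM with HCC+ EVs, 53.4 ± 2.04 CPM with HCC- EVs and 52.2 ± 3.37 CPM in blank cells (SD, n = 3 each). Of the ATP-Mg/phosphate carriers, which set the adenine nucleotide pool of the matrix, SLC25A23 and SLC25A24 were lower than blank with HCC- EVs (-0.47 and -0.48) and higher with HCC+ than with HCC- EVs (0.43 and 0.32). SLC25A25 and SLC25A41 had no call in these comparisons.

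The carboxylate, pyruvate and acylcarnitine carriers had 5 of 7 members lower than blank with HCC- EVs, with a median of -0.43 over the 7, and the same number higher with HCC+ than with HCC- EVs, with a median of 0.51. MPC1 (chr6:166364919-166383013) had 17.9, 21.2 and 19.4 CPM with HCC+ EVs, 12.9, 11.1 and 10.7 CPM with HCC- EVs and 22.6, 21.2 and 18.6 CPM in blank cells. Its HCC- libraries lay below the others and its HCC+ libraries within or just under the range of the blank. The log2 fold change was -0.84 ± 0.11 for HCC- EVs against blank (adjusted p = 6.42e-08) and 0.75 ± 0.11 for HCC+ against HCC- EVs (adjusted p = 1.36e-06). MPC2 had 20.7, 26.2 and 23.7 CPM with HCC+ EVs, 16.6, 17.1 and 13.7 CPM with HCC- EVs and 23.1, 18.8 and 22.1 CPM in blank cells. It too was lower than blank with HCC- EVs, at -0.43 (adjusted p = 0.000989), and 21.8% of its exon bases lie under DCAF6 on the opposite strand, whose reads cannot be told apart from its own where the strand was not used.

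SLC25A1, which exports citrate for fatty acid synthesis, had 142, 138 and 152 CPM with HCC+ EVs, 90.5, 104 and 87.8 CPM with HCC- EVs and 110, 151 and 116 CPM in blank cells. Only the HCC- libraries lay apart, at -0.42 against blank (adjusted p = 0.00018), and HCC+ exceeded HCC- EVs by 0.61 (adjusted p = 2.1e-06). The dicarboxylate carrier SLC25A10 had 13.3, 11.7 and 13.8 CPM with HCC+ EVs, 8.9, 9.87 and 8.42 CPM with HCC- EVs and 11.2, 13.5 and 13 CPM in blank cells. The HCC- libraries lay below both other groups, at -0.48 against blank, and there was no call with HCC+ EVs. Another annotated gene on the same strand, with 0 counts, covers 46.6% of the exon bases of SLC25A10, so its level is uncertain. The oxoglutarate/malate carrier SLC25A11 had 61.9, 61.5 and 61 CPM with HCC+ EVs, 46.6, 53.2 and 49.3 CPM with HCC- EVs and 64.2, 74.5 and 69.5 CPM in blank cells. Its groups did not overlap, at -0.18 with HCC+ EVs, -0.48 with HCC- EVs and 0.31 between them, but the HCC+ call against blank held without blank replicate 1 (-0.23) and ended without each of the other 5 libraries (-0.18 to -0.12). The carnitine/acylcarnitine carrier SLC25A20, which brings fatty acyl groups in for oxidation, went the other way. It had 25.3, 24.6 and 22.7 CPM with HCC+ EVs, 21.8, 22 and 24 CPM with HCC- EVs and 19, 18.5 and 16 CPM in blank cells, log2 fold changes of 0.44 and 0.34 against blank. SLC25A21, the oxodicarboxylate carrier, was called with HCC- EVs alone, at 0.41, and that call held without HCC- replicate 3 (0.48) and ended without each of the other 5 libraries (0.35 to 0.43).

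Amino acid carriers moved in both directions. With HCC+ EVs 2 of 8 tested were higher than blank and 2 lower, and with HCC- EVs 4 were higher and 3 lower. With HCC- EVs the ornithine carrier SLC25A15 and the aspartate/glutamate carriers SLC25A12 and SLC25A13 fell, while SLC25A38, SLC25A44, SLC25A29 and the glutamate carrier SLC25A18 rose. SLC25A12 (chr2:171783405-171999859), an aspartate/glutamate carrier of the malate-aspartate shuttle, had 32.6, 31.6 and 32.1 CPM with HCC+ EVs, 21.3, 20 and 16.8 CPM with HCC- EVs and 38.5, 36.7 and 36.5 CPM in blank cells. The HCC- libraries lay far below the other 2 groups, at -0.94 ± 0.08 against blank (adjusted p = 3.5e-11) and 0.73 ± 0.08 for HCC+ against HCC- EVs. With HCC+ EVs the call at -0.21 ± 0.08 (adjusted p = 0.044) ended with GC and length trends removed (-0.15) and without any 1 of the 6 libraries (-0.23 to -0.19; adjusted p 0.0523 to 0.124). Its paralog SLC25A13 was lower than blank with HCC- EVs, at -0.48, and had no call with HCC+ EVs, at -0.09. SLC25A15 (chr13:40789412-40812460), the ornithine carrier of the urea cycle, had 34.3, 41 and 38.2 CPM with HCC+ EVs, 30.7, 31.2 and 30.5 CPM with HCC- EVs and 53.3, 56.2 and 59.6 CPM in blank cells. Both treated groups lay below the blank, at -0.58 ± 0.07 and -0.87 ± 0.07, and apart from each other by 0.30 ± 0.07 (adjusted p = 0.00116), a difference of 0.13 with no call (adjusted p = 0.136) when library totals were the only scaling.

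SLC25A44 (chr1:156193932-156212796), a carrier of branched-chain amino acids, was highest with HCC- EVs. It had 57.9, 55.9 and 56.1 CPM with HCC+ EVs, 64.9, 69.1 and 74.1 CPM with HCC- EVs and 45.6, 50 and 47.3 CPM in blank cells, 3 groups without overlap. The log2 fold changes were 0.25 ± 0.06 and 0.54 ± 0.06 against blank, and -0.29 ± 0.06 for HCC+ against HCC- EVs (adjusted p = 0.000445). SLC25A38, which serves heme synthesis as a glycine carrier, was higher than blank with HCC- EVs (0.27) and lower with HCC+ than with HCC- EVs (-0.34). SLC25A29, the basic amino acid carrier, was higher than blank with both sources (0.24 and 0.42), and its HCC+ call ended without HCC+ replicate 1 (0.19), HCC+ replicate 3 (0.23), blank replicate 1 (0.19) or blank replicate 3 (0.20). With GC and length trends removed both calls of SLC25A29 ended, at -0.02 with HCC+ EVs (adjusted p = 0.871) and 0.09 with HCC- EVs (adjusted p = 0.192). Of the glutamate carriers, SLC25A22 had no call at 1.2 mg/mL, and SLC25A18, at 0.855 ± 0.253 CPM with HCC+ EVs, 1.29 ± 0.458 CPM with HCC- EVs and 0.552 ± 0.105 CPM in blank cells (SD, n = 3 each), was called with HCC- EVs alone (1.22 ± 0.36). With GC and length trends removed SLC25A22 was called lower than blank, at -0.28 with HCC+ and -0.26 with HCC- EVs.

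Of the 10 carriers of nucleotides, cofactors and vitamins, all tested, 1 was higher and 2 were lower than blank with HCC+ EVs, and 2 were higher and 4 lower with HCC- EVs. The pair that serves coenzyme A moved in opposite directions. SLC25A42 (chr19:19063999-19112888), a coenzyme A carrier, had 25.9, 23.1 and 23.3 CPM with HCC+ EVs, 16.5, 18.7 and 13.9 CPM with HCC- EVs and 13.4, 14.6 and 12.6 CPM in blank cells. The HCC+ libraries lay above all others, at 0.83 ± 0.12 against blank (adjusted p = 1.43e-06) and 0.56 ± 0.11 against HCC- EVs (adjusted p = 0.000209). The HCC- libraries overlapped the blank at 0.27 ± 0.12 (adjusted p = 0.0479), a call that ended without HCC- replicate 1 (0.27), HCC- replicate 2 (0.18), blank replicate 1 (0.26) or blank replicate 3 (0.21), and with GC and length trends removed (0.11, adjusted p = 0.385). SLC25A16 (chr10:68477998-68527523), also linked to coenzyme A, had 6.59, 8.02 and 7.27 CPM with HCC+ EVs, 5.61, 5.44 and 5.91 CPM with HCC- EVs and 10.6, 8.59 and 10.4 CPM in blank cells. It was lower than blank with both sources, at -0.43 ± 0.12 and -0.80 ± 0.12. The HCC+ call ended without HCC+ replicate 1 (-0.35, adjusted p = 0.0511), and that for HCC+ against HCC- EVs, at 0.37 ± 0.12, ended without HCC+ replicate 2 (0.29) or HCC- replicate 2 (0.33).

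SLC25A17 (chr22:40769630-40819399) differs from most of the family in its place, the peroxisomal membrane, where it carries cofactors such as coenzyme A. It had 17.4, 21.5 and 19.3 CPM with HCC+ EVs, 13.4, 12.4 and 13.5 CPM with HCC- EVs and 27, 26.5 and 29.1 CPM in blank cells. Its 3 groups did not overlap, at -0.50 ± 0.08 (adjusted p = 2.31e-05) and -1.07 ± 0.09 (adjusted p = 5.07e-12) against blank, and 0.56 ± 0.09 for HCC+ against HCC- EVs. SLC25A36, a carrier of pyrimidine nucleotides, had 76.2, 93 and 80.3 CPM with HCC+ EVs, 74.2, 56 and 72.1 CPM with HCC- EVs and 101, 79.9 and 99.9 CPM in blank cells. The HCC- libraries lay below both other groups, at -0.47 against blank (adjusted p = 0.000104), and the call of 0.30 for HCC+ against HCC- EVs ended without HCC+ replicate 2 (0.20) or HCC- replicate 2 (0.18). SLC25A51, the NAD carrier, was higher than blank with HCC- EVs (0.28) and lower with HCC+ than with HCC- EVs (-0.28). The SLC25A51 call against blank ended without blank replicate 2 (0.20) or replicate 3 (0.24), and the other without HCC- replicate 2 (-0.25). Its paralog SLC25A52 had at most 0.392 CPM in a library, and its call of -2.35 ± 0.79 for HCC+ against HCC- EVs ended without HCC+ or HCC- replicate 1 or 2 (-2.15 to -1.83). SLC25A26, SLC25A32 and SLC25A33, which carry S-adenosylmethionine, folate and pyrimidine nucleotides, had no call.

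All 4 iron and glutathione carriers were lower than blank with HCC- EVs, with a median of -0.70, and higher with HCC+ than with HCC- EVs, with a median of 0.38, while 2 were lower with HCC+ EVs. SLC25A39 (chr17:44319625-44324870), which brings glutathione into the matrix, had 242, 226 and 237 CPM with HCC+ EVs, 160, 183 and 157 CPM with HCC- EVs and 323, 416 and 332 CPM in blank cells. Its 3 groups did not overlap, at -0.60 ± 0.08 (adjusted p = 7.61e-07) and -1.10 ± 0.08 (adjusted p = 7.64e-13) against blank and 0.50 ± 0.08 (adjusted p = 1.2e-05) between the sources, so the level with HCC- EVs was 2.14-fold below the blank. SLC25A40 (chr7:87833568-87876360), its glutathione-carrying paralog, had 17.6, 22.8 and 19.7 CPM with HCC+ EVs, 14.6, 10.1 and 11.3 CPM with HCC- EVs and 25.8, 19.2 and 22.3 CPM in blank cells. The HCC- libraries lay below both other groups, at -0.90 ± 0.13 against blank (adjusted p = 5.49e-07), and the HCC+ libraries overlapped the blank at -0.16. Of the mitoferrins, which import iron, SLC25A37 was lower than blank with both sources (-0.24 and -0.51). SLC25A28 was lower with HCC- EVs only by -0.21, a call that ended without HCC- replicate 1 (-0.17), HCC- replicate 3 (-0.19) or blank replicate 2 (-0.13) and turned to 0.07 with total counts alone. Its call of 0.23 for HCC+ against HCC- EVs ended without replicate 1 or 3 of either source (0.19 to 0.21).

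UCP2 and UCP3, neighbours 17.4 kb apart on chromosome 11, moved apart with HCC+ EVs. UCP2, the uncoupling protein found in many tissues, had 16.3, 12.9 and 12.1 CPM with HCC+ EVs, 13.5, 13.2 and 12 CPM with HCC- EVs and 9.27, 11.6 and 8.26 CPM in blank cells. It was higher than blank with both sources, at 0.50 ± 0.13 and 0.40 ± 0.13, without overlap, and the HCC- call ended without blank replicate 3 (0.29). UCP3, best known from skeletal muscle, had 1.59, 1.41 and 1.54 CPM with HCC+ EVs, 2.04, 2.67 and 2.08 CPM with HCC- EVs and 2.57, 2.09 and 2.22 CPM in blank cells. The HCC+ libraries lay below both other groups, at -0.60 ± 0.23 against blank (adjusted p = 0.0449) and -0.58 ± 0.22 against HCC- EVs (adjusted p = 0.0432). The first of these calls held without blank replicate 2 (-0.66) and ended without each of the other 5 libraries (-0.62 to -0.51). The second held without HCC- replicate 1 (-0.65) and ended without each of the others (-0.64 to -0.45). Among the relatives of the uncoupling proteins, SLC25A30 had 41, 44.4 and 42.1 CPM with HCC+ EVs, 37.7, 34.2 and 36.6 CPM with HCC- EVs and 45.4, 37.3 and 44.5 CPM in blank cells. The HCC- libraries reached into the range of the blank, and the call at -0.23 turned to 0.05 with total counts alone, ended at -0.09 with GC and length trends removed, and ended without HCC- replicate 2 (-0.18), HCC- replicate 3 (-0.23), blank replicate 1 (-0.19) or blank replicate 3 (-0.20). Its call of 0.23 for HCC+ against HCC- EVs ended without replicate 2 or 3 of either source (0.19 to 0.24). SLC25A14 and SLC25A27 had no call at 1.2 mg/mL. With GC and length trends removed SLC25A27 was called higher than blank, at 0.56 with HCC+ and 0.64 with HCC- EVs.

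Carriers without a settled substrate included the carrier with the largest rise whose average over all libraries was 1 log2 CPM or more. SLC25A45 (chr11:65375192-65383701) had 2.9, 2.25 and 2.32 CPM with HCC+ EVs, 4.56, 6.12 and 5.12 CPM with HCC- EVs and 2.2, 1.77 and 1.87 CPM in blank cells. The HCC- libraries lay above all others, at 1.44 ± 0.20 against blank (adjusted p = 4.28e-07) and -1.08 ± 0.19 for HCC+ against HCC- EVs (adjusted p = 4.91e-05). The HCC+ libraries lay just above the blank, with no call at 0.36 ± 0.21 (adjusted p = 0.2). SLC25A35 (chr17:8287763-8295400) had 5.35, 5.06 and 5.22 CPM with HCC+ EVs, 4.64, 5.25 and 5.28 CPM with HCC- EVs and 2.67, 3.45 and 3.74 CPM in blank cells, higher than blank with both sources (0.65 ± 0.18 and 0.61 ± 0.18). A share of 28.7% of its exon bases lies under RANGRF on the opposite strand. SLC25A46 (chr5:110738136-110765161), an outer membrane protein of mitochondrial dynamics, had 37.5, 42.4 and 43.1 CPM with HCC+ EVs, 30.2, 23 and 25.3 CPM with HCC- EVs and 48.8, 37.7 and 45.2 CPM in blank cells. Only its HCC- libraries lay apart, at -0.74 ± 0.10 against blank (adjusted p = 7.99e-08) and 0.65 ± 0.09 for HCC+ against HCC- EVs. SLC25A43 was lower than blank with HCC- EVs (-0.54), and SLC25A34, SLC25A48 and SLC25A53 had no call.

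**Figure D2:**
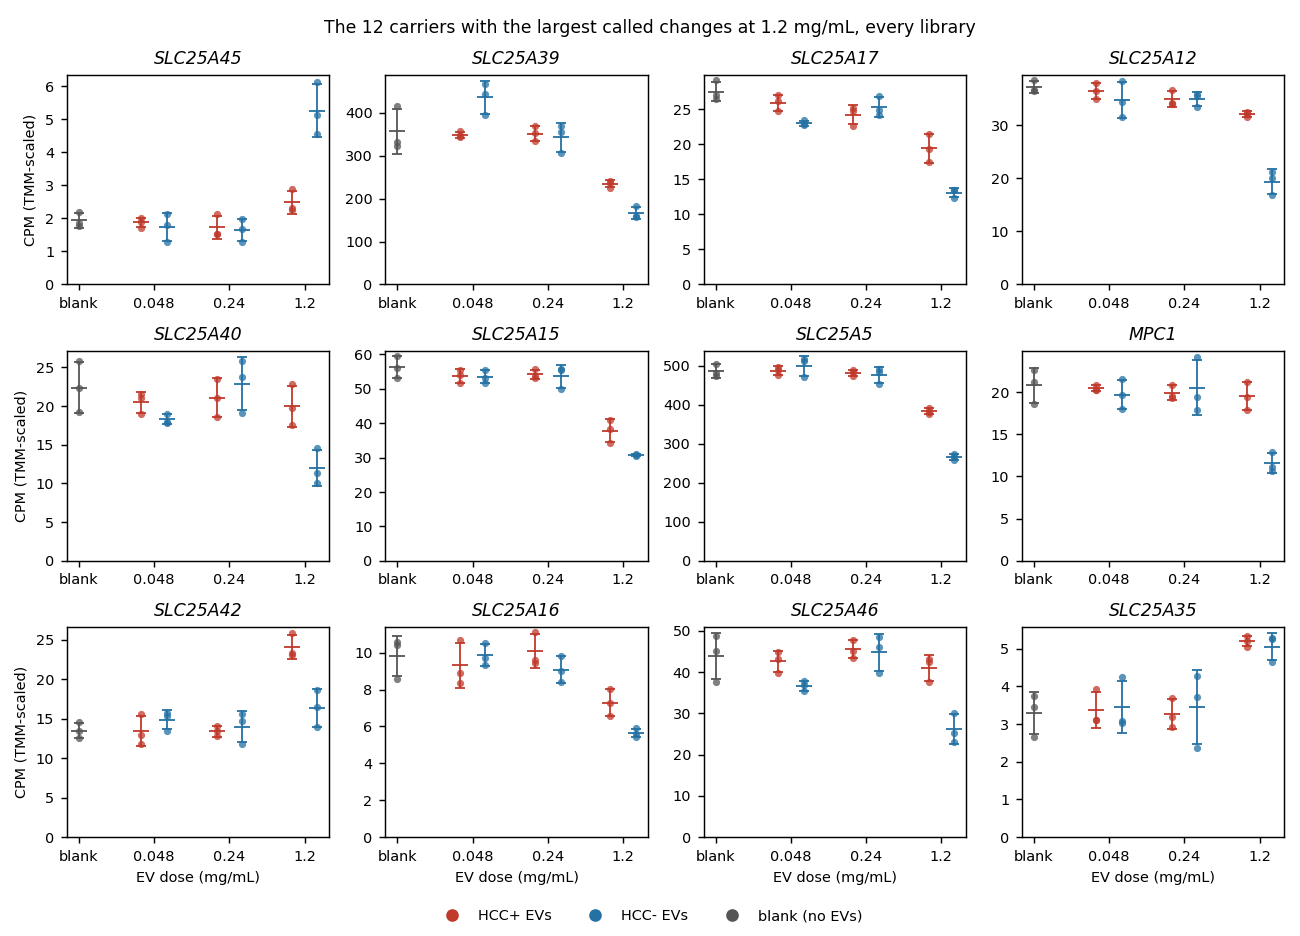
CPM of the carriers with the largest changes in each library (points) with the mean ± SD of 3 libraries (bars), from blank through 0.048 and 0.24 to 1.2 mg/mL for HCC+ and HCC- EVs. For SLC25A5 the libraries at 1.2 mg/mL, 377 to 393 CPM with HCC+ EVs and 258 to 275 CPM with HCC- EVs, lie below those at the lower doses, 454 to 517 CPM.

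The balance within several carrier pairs differed at 1.2 mg/mL from that in blank cells. The pairs were chosen after their values were seen, and with 3 libraries a group an exact permutation test cannot give a two-sided p below 0.1, or 0.193 after adjustment over the 27 tests of 9 pairs, so the values are descriptions. The ratio of SLC25A42 to SLC25A16, in CPM per kb, was 5.76 with HCC+ EVs, 5.01 with HCC- EVs and 2.4 in blank cells. On the log2 scale this was 2.53 ± 0.23, 2.33 ± 0.27 and 1.26 ± 0.26 (SD, n = 3 each), with both treated groups above the blank without overlap and no separation between them. UCP2 exceeded UCP3 by 10.9-fold with HCC+ EVs, 6.91-fold with HCC- EVs and 5.08-fold in blank cells, and here the HCC+ libraries lay above both other groups. With HCC+ EVs at 0.048 mg/mL the excess was 7.49-fold. Replicate 2 of that dose, at a log2 ratio of 3.27, reached into the range at 1.2 mg/mL (3.25 to 3.63). Within the ADP/ATP carriers SLC25A4, SLC25A5 and SLC25A6, the share of SLC25A5 was 58.5 ± 1.31% with HCC+ EVs, 52.7 ± 1.51% with HCC- EVs and 61.8 ± 3.69% in blank cells. The share of SLC25A6 was 38.8 ± 1.4%, 43.9 ± 1.52% and 36.1 ± 3.66% in the same groups. The HCC+ libraries overlapped the blank in the ratio of SLC25A5 to SLC25A6. The shares were also 57.2 ± 0.37% for SLC25A5 and 40.7 ± 0.357% for SLC25A6 with HCC- EVs at 0.048 mg/mL, so such shifts were not limited to 1.2 mg/mL. For SLC25A12 over SLC25A13 the log2 ratio was -0.26 ± 0.10 with HCC+ EVs, -0.60 ± 0.17 with HCC- EVs and -0.14 ± 0.07 in blank cells, with the HCC- libraries below both others.

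**Figure D3:**
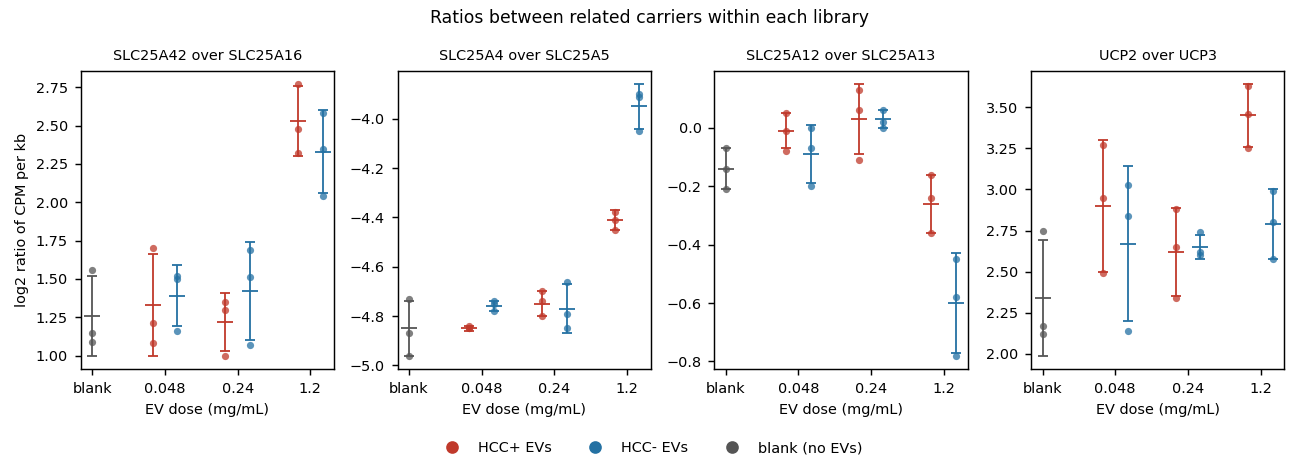
Log2 ratio of CPM per kb for pairs of carriers of one substrate or kind, per library (points) with the mean ± SD of 3 libraries (bars), by EV source and dose. SLC25A42 over SLC25A16 stands at 2.53 with HCC+ EVs and 2.33 with HCC- EVs at 1.2 mg/mL, against 1.26 in blank cells.

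At 0.24 mg/mL no carrier was called with either source against blank or between the sources by edgeR, nor by DESeq2. The counts at an unadjusted p under 0.05 were 2 carriers for HCC+ EVs and 3 for HCC- EVs against blank, and 0 between the sources. Of all genes tested, 0.00511% were called for HCC+ EVs and 0% in the other 2 comparisons. HCC+ EVs at 0.048 mg/mL gave 0 calls among the carriers by both tools, 2 at an unadjusted p, beside 0% of all genes. Over the 12 libraries at these doses SLC25A39 stood at 306 to 468 CPM, SLC25A12 at 31.6 to 38.4 CPM, SLC25A15 at 49.9 to 55.8 CPM, SLC25A42 at 11.8 to 15.7 CPM and SLC25A45 at 1.3 to 2.14 CPM. SLC25A15 and SLC25A45 thus stood clear of their levels with either source at 1.2 mg/mL, SLC25A42 clear of those with HCC+ EVs, and SLC25A12 met the HCC+ libraries at 31.6 to 32.6 CPM.

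HCC- EVs at 0.048 mg/mL gave 6 higher and 3 lower calls against blank among the 49 carriers, where 16.4% of all genes were called, 8.28% higher and 8.16% lower. SLC25A6, SLC25A1, SLC25A10, SLC25A11, SLC25A22 and SLC25A39 were higher, at 0.29 to 0.35, and MPC2 (-0.41), SLC25A17 (-0.26) and SLC25A30 (-0.32) lower. SLC25A22 had 97.2, 101 and 99.7 CPM with HCC- EVs at this dose, against 67.9, 91.9 and 73.4 CPM in blank cells. SLC25A39 had 468, 444 and 395 CPM with HCC- EVs and 323, 416 and 332 CPM in blank cells. The blank libraries spread widely in both, with replicate 2 highest, and for SLC25A39 the groups overlapped. SLC25A6 had 372, 366 and 329 CPM with HCC- EVs and 270, 337 and 250 CPM in blank cells, and for SLC25A1 the values were 158, 157 and 147 CPM with HCC- EVs and 110, 151 and 116 CPM in blank cells. In both, blank replicate 2 again reached into the range of the treated libraries. SLC25A10 had 15.6, 15.7 and 16.1 CPM with HCC- EVs and 11.2, 13.5 and 13 CPM in blank cells, and SLC25A11 had 88, 86 and 80.9 CPM with HCC- EVs and 64.2, 74.5 and 69.5 CPM in blank cells, neither with overlap.

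Of the lower ones, MPC2 had 16.1, 16 and 15.8 CPM with HCC- EVs at 0.048 mg/mL and 23.1, 18.8 and 22.1 CPM in blank cells. SLC25A17 had 23.4, 22.9 and 22.8 CPM with HCC- EVs and 27, 26.5 and 29.1 CPM in blank cells, and SLC25A30 had 33, 34.1 and 35 CPM with HCC- EVs and 45.4, 37.3 and 44.5 CPM in blank cells. All 3 lay below the blank without overlap, and for MPC2 and SLC25A30 blank replicate 2 was the blank library nearest to the treated ones.

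These calls went with base composition. The 6 higher carriers had transcripts of 59.6 to 66.2% GC, with a median of 64.2%, and the 3 lower ones of 42.2 to 46.5%, with a median of 44%. With the dependence of counts on GC content and on length taken out of every library, 0 of the 9 calls were left by edgeR, SLC25A22 stood at 0.08 and SLC25A1 at -0.02, and MPC2 at -0.34 (adjusted p = 0.0968). Each of the 9 calls also ended without blank replicate 1 and without blank replicate 3, which left 0 carriers called. Of all genes 0.00491% and 0.059% were then called. Without blank replicate 2 the calls rose to 11 higher and 8 lower, beside 28.1% of all genes. Between the sources at 0.048 mg/mL, MPC2 was higher with HCC+ than with HCC- EVs (0.40), and SLC25A1 (-0.31), SLC25A6 (-0.36), SLC25A22 (-0.36) and SLC25A39 (-0.32) were lower, beside 3.54% of all genes called, 1.08% higher and 2.46% lower. None of these 5 calls was left with the trends removed either, and leaving out any 1 of the 6 libraries left 0 higher calls and 0 to 3 lower ones.

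**Figure D4:**
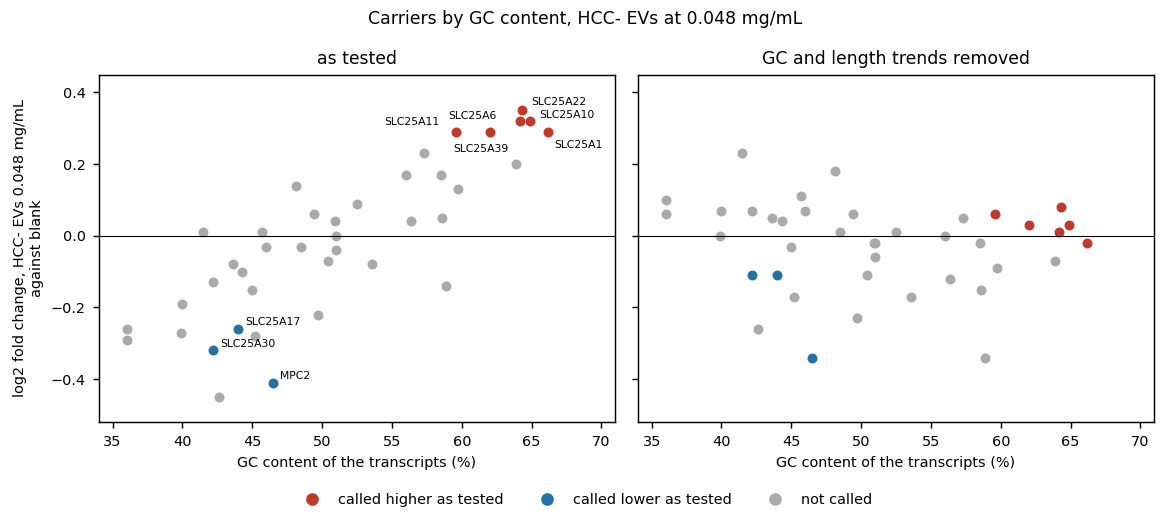
Log2 fold change of carriers averaging 1 log2 CPM or more for HCC- EVs at 0.048 mg/mL against blank, plotted on the GC content of their transcripts, as tested (left) and with GC and length trends removed (right). Colours mark the calls as tested, with the 6 higher ones at 59.6 to 66.2% GC and the 3 lower ones at 42.2 to 46.5% GC.

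Set against 0.048 mg/mL of the same source, 1.2 mg/mL of HCC+ EVs gave 8 higher and 7 lower calls among the carriers, beside 28.3% of all genes (13.4% higher and 14.9% lower), and 1.2 mg/mL of HCC- EVs gave 10 higher and 22 lower, beside 52.8% of all genes, 24.9% higher and 28% lower. These comparisons use none of the blank libraries. Their HCC- reference at 0.048 mg/mL is, however, the group whose calls against blank went with base composition. With GC and length trends removed, HCC- EVs had 12 higher and 23 lower calls between these doses, beside 57.7% of all genes. The higher calls of HCC+ EVs numbered 3 without replicate 2 at 0.048 mg/mL, 5 without replicate 3 at that dose and 5 without replicate 1 at 1.2 mg/mL, and those of HCC- EVs 6 without replicate 1 or replicate 2 at 0.048 mg/mL. The effect of source, HCC+ over HCC- EVs, differed between 1.2 and 0.048 mg/mL for 25 carriers, 21 with a higher and 4 with a lower ratio at 1.2 mg/mL, where 16.7% and 7.63% of all genes were called. The median of this difference was 0.24 over the carriers and 0.01 over all genes. With library totals as the only scaling 13 carriers had a higher and 5 a lower ratio, and the medians were 0.05 over the carriers and -0.19 over all genes. Of all 19556 genes, 1631 then had a higher and 3219 a lower ratio. SLC25A27, a relative of the uncoupling proteins, and SLC25A25 were called in no comparison at 1.2 mg/mL with the blank, but SLC25A27 was higher at 1.2 than at 0.048 mg/mL with both sources (0.60 with HCC+ and 0.45 with HCC- EVs) and SLC25A25 with HCC+ EVs (0.24). The SLC25A25 call ended without HCC+ replicate 1 (0.19) or 3 (0.21) at 1.2 mg/mL and without HCC+ replicate 1 (0.24) or 2 (0.23) at 0.048 mg/mL. SLC25A4, SLC25A14, SLC25A26, SLC25A32, SLC25A33, SLC25A34, SLC25A41, SLC25A48 and SLC25A53 were called in none of the 12 comparisons.

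Genes that work beside the carriers were called lower more often than higher at 1.2 mg/mL, on lists chosen with earlier results of these data known. With TMM factors 17.4% of all genes were lower with HCC+ and 28.5% with HCC- EVs, and 22.6% were higher with HCC+ than with HCC- EVs. With library totals as the only scaling, added after seeing the data, the 4 lists together had 9 higher and 17 lower calls with HCC+ EVs and 10 higher and 24 lower with HCC- EVs, of 41 genes tested. That scaling called 4657 of all 19556 genes higher and 2069 lower with HCC+ EVs, and 8128 higher and 3097 lower with HCC- EVs. The list counts below are with TMM factors unless stated. Of 7 genes of the machinery that delivers carriers to the inner membrane, 5 were lower than blank with HCC+ EVs and 6 with HCC- EVs, with medians of -0.36 and -0.57, and 4 were higher with HCC+ than with HCC- EVs (0 higher and 1 lower with library totals alone). The small chaperones TIMM9 and TIMM10, which guide carriers across the intermembrane space, stood at -0.90 and -0.72 with HCC+ EVs and at -1.36 and -0.99 with HCC- EVs, and the import receptor TOMM70 at -0.50 and -0.78. All 4 enzymes of the malate-aspartate shuttle, GOT1, GOT2, MDH1 and MDH2, were lower than blank with both sources and higher with HCC+ than with HCC- EVs. With library totals alone 3 were lower with HCC+ EVs and 4 with HCC- EVs, and 2 were higher with HCC+ than with HCC- EVs. MDH1, the cytosolic malate dehydrogenase, was at -0.37 with HCC+ EVs, -0.85 with HCC- EVs and 0.48 between them. Among 15 tested genes of other mitochondrial membrane transport, 2 were higher and 7 lower with HCC+ EVs, and 1 was higher and 10 lower with HCC- EVs. The outer membrane channel VDAC1 was at -0.37 and -0.84 against blank and at 0.46 between the sources. Of 15 enzymes that make or use the carried metabolites, 1 was higher and 7 lower with HCC+ EVs, and 0 were higher and 9 lower with HCC- EVs. MTHFD2 and SHMT2, of mitochondrial one-carbon metabolism, were at -0.96 and -0.60 with HCC+ EVs and at -1.41 and -1.10 with HCC- EVs, and ACLY, which uses exported citrate, was higher with HCC+ than with HCC- EVs (0.62).

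Promoter sequences, from 250 bases before to 50 after the start, were found for 44 of the 52 carriers in RefSeq (GRCh38.p14) and searched on both strands. The E-box CACGTG was in 7 of the 44, or 15.9%, and in 7.43% of 27305 promoters of the same length. Those 27305 were not limited to protein-coding genes, as the carriers are, so the shares here compare unlike sets. The motif of the transcription factor NRF1 was in 6 of them (13.6%, beside 6.28%) and the C/EBP-ATF element TGATGNAA in 1, SLC25A11 (2.27%, beside 3.67%). Stretches around the E-box, in capitals, are shown for all 6 tested carriers that hold it, and SLC25A31, which also holds it, was not tested. The rule for named genes gave SLC25A46. Showing the other 5 was decided after their values were seen, so that carriers of unlike response can be compared. A match is a description of these letters and not a site of binding.
SLC25A46 (chr5:110738940-110738985, plus strand): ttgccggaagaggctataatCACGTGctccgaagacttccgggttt
SLC25A13 (chr7:96322227-96322272, minus strand): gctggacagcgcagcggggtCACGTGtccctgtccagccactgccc
SLC25A36 (chr3:140941673-140941718, plus strand): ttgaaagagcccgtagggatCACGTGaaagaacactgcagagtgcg
SLC25A38 (chr3:39383306-39383351, plus strand): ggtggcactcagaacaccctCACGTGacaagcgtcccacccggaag
SLC25A51 (chr9:37904161-37904206, minus strand): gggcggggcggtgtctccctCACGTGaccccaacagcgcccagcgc
SLC25A33 (chr1:9539419-9539464, plus strand): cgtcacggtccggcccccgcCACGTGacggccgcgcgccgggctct
Of these, SLC25A46, SLC25A13 and SLC25A36 were lower than blank with HCC- EVs at 1.2 mg/mL (-0.74, -0.48 and -0.47), SLC25A38 and SLC25A51 higher (0.27 and 0.28), and SLC25A33 was not called. The SLC25A51 call ended when single blank libraries were left out (0.20 and 0.24), and that of SLC25A36 with library totals as the only scaling (-0.19). Whether the E-box had a part in any of these changes was not tested.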

How the data were processed

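Per the labels' protocols, the RNeasy Mini kit gave the RNA, and NEBNext Ultra II reagents were used for the libraries. Per the submitters' processing notes, the authors used cutadapt 3.4, HISAT2 2.2.1 and featureCounts 2.0.1 with GRCh38. The authors deposited raw read counts per Ensembl gene with exon coordinates; which annotation release, strand mode and treatment of multimapped reads were used is not given in the sources used here. A table of gene names matched 58472 of 65065 identifiers to symbols, and gene types and GC content came from GENCODE v29.

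The counts entered 1 model with 7 group means and 14 residual degrees of freedom in edgeR 4.0.16 under R 4.3.3 (TMM factors, filterByExpr, robust glmQLFit, two-sided glmQLFTest, Benjamini-Hochberg over all tested genes, 12 comparisons), where the common biological coefficient of variation was 0.0885. The SE was taken as the log2 fold change divided by the square root of F. The method was tested on simulated counts. Each library's total, 31.22 to 64.01 M, sets the precision of low genes. DESeq2 1.42.0 and the settings of the closing section were alternatives, and figures used matplotlib 3.10.9 under Python 3.11.15.

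The carriers, role groups, gene lists and alternatives were chosen with earlier results of these data known. Library values were printed for up to 12 called carriers with the largest log2 fold change at 1.2 mg/mL, an average of 1 log2 CPM or more and no overlap, for every carrier called at a lower dose, and for the highest called carrier of each role group. SLC25A20, UCP2 and UCP3 were added after their values were seen. For neighbouring lists, called genes with the smallest p were named.

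Replicate numbers paired no libraries across groups: residuals correlated by -0.0954 to 0.115 over the 63 same-numbered pairs, 1 of them above 0.1. In all, 1 carrier is included in the counts but is not reported here by name or drawn in the figures.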

Additional observations from a re-analysis of the deposited data

Results flagged for a closer look

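The effect of EV source (log2 of HCC+ over HCC- EVs) differed between 1.2 and 0.048 mg/mL for 25 carriers, by the test of that difference in edgeR's quasi-likelihood model, where 24.3% of all genes did. A positive value means that HCC+ stood higher relative to HCC- EVs at 1.2 than at 0.048 mg/mL, and each value is ± SE. With library totals as the only scaling 13 carriers were called higher and 5 lower in this test, in place of 21 and 4. Beside them 1631 of all 19556 genes were called higher and 3219 lower. That scaling ended the calls of SLC25A13 (0.20), SLC25A15 (0.10), SLC25A16 (0.26), SLC25A17 (0.20), SLC25A22 (0.13), SLC25A37 (0.10), SLC25A40 (0.38) and SLC25A46 (0.23). The SLC25A22 call also ended with GC and length trends removed (0.12).

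Among the adenine nucleotide and phosphate carriers the difference was 0.41 ± 0.07 for SLC25A3, 0.56 ± 0.07 for SLC25A5, 0.56 ± 0.11 for SLC25A6 and 0.59 ± 0.10 for SLC25A23. For the carboxylate and pyruvate carriers it was 0.92 ± 0.13 for SLC25A1, 0.61 ± 0.14 for SLC25A10, 0.52 ± 0.09 for SLC25A11 and 0.69 ± 0.15 for MPC1. SLC25A1 (adjusted p = 1.98e-06) and SLC25A39, at 0.82 ± 0.11 (adjusted p = 2.75e-06), had the highest positive values, and both were among the carriers whose source comparison at 0.048 mg/mL lost its call with GC and length trends removed. In that setting the source effects at 1.2 and 0.048 mg/mL were 0.59 and -0.04 for SLC25A1 and 0.51 and -0.11 for SLC25A39. For SLC25A12 they were 0.71 and -0.04, so the order of the carriers depends on the setting. The amino acid carriers had 0.29 ± 0.10 for SLC25A15, 0.66 ± 0.12 for SLC25A12, 0.39 ± 0.11 for SLC25A13 and 0.32 ± 0.12 for SLC25A22, and negative values of -0.29 ± 0.10 for SLC25A38 and -0.37 ± 0.09 for SLC25A44.

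Of the cofactor carriers, SLC25A16 had 0.45 ± 0.17, SLC25A42 0.69 ± 0.16, SLC25A17 0.39 ± 0.12 and SLC25A51 -0.39 ± 0.13. SLC25A28 had 0.49 ± 0.11, SLC25A37 0.29 ± 0.08 and SLC25A40 0.57 ± 0.18. Among those without a settled substrate SLC25A43 had 0.56 ± 0.13, SLC25A46 0.43 ± 0.13 and SLC25A45 -1.18 ± 0.29, the most negative of the 25.

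Leaving out each of the 12 libraries in turn, 17 of the 25 calls held throughout. SLC25A22, SLC25A16 and SLC25A38 lost the call in most of these fits, where they stood at 0.27 to 0.34, 0.37 to 0.50 and -0.30 to -0.23, and SLC25A15 lost it in some, at 0.22 to 0.29. SLC25A17 lost it without HCC+ replicate 2 at 1.2 mg/mL (0.30). SLC25A40 lost it without HCC+ replicate 2 (0.46), HCC- replicate 2 (0.45) or HCC- replicate 3 (0.52) at 1.2 mg/mL. SLC25A46 lost it without HCC- replicate 2 (0.34) or 3 (0.40) or HCC+ replicate 3 (0.39) at 1.2 mg/mL, or HCC+ replicate 3 at 0.048 mg/mL (0.39). SLC25A51 lost it without HCC+ replicate 3 at 1.2 mg/mL (-0.38), HCC+ replicate 2 at 0.048 mg/mL (-0.36) or HCC- replicate 3 at 0.048 mg/mL (-0.36).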

How the results depend on the processing

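Of the 166 calls over all comparisons, RLE size factors and DESeq2 kept the direction and the call of 163 each, no filter on low counts of 151, only the groups compared of 150, trends with GC content and length removed of 145, and the total count alone of 127. No call changed direction except 5. With the total count alone SLC25A28 stood at 0.07 and SLC25A30 at 0.05 for HCC- EVs at 1.2 mg/mL against blank, and SLC25A24 at 0.01 for HCC- EVs at 1.2 against 0.048 mg/mL. With the GC and length trends removed SLC25A29 stood at -0.02 for HCC+ EVs at 1.2 mg/mL and SLC25A1 at -0.02 for HCC- EVs at 0.048 mg/mL, both against blank. The counts that moved by over 1.5 times with the total count alone were 5 lower for HCC+ and 17 higher for HCC- EVs at 1.2 mg/mL against blank, 15 higher for HCC+ against HCC- EVs at 1.2 mg/mL, 13 higher for the difference of the source effect between doses, 4 lower for HCC+ and 19 higher for HCC- EVs at 1.2 against 0.048 mg/mL. With the trends removed, HCC- EVs at 0.048 mg/mL against blank and HCC+ against HCC- EVs at 0.048 mg/mL had 0 higher and 0 lower calls, and HCC+ EVs at 1.2 against 0.048 mg/mL 11 lower. DESeq2 gave 6 lower calls for HCC- EVs at 0.048 mg/mL against blank and 8 lower for HCC+ against HCC- EVs at that dose, where only the groups compared gave 4 higher and 9 lower. The cause of these moves was not tested. Leaving out 1 library gave 5 to 7 higher and 5 to 8 lower calls for HCC+ EVs and 8 to 12 and 22 to 24 for HCC- EVs at 1.2 mg/mL against blank, and 20 to 22 and 3 to 5 between the sources at 1.2 mg/mL. It gave 0 to 11 and 0 to 8 for HCC- EVs at 0.048 mg/mL, 0 and 0 to 3 between the sources at 0.048 mg/mL, and 3 to 8 and 6 to 7 (HCC+) and 6 to 10 and 22 to 23 (HCC-) at 1.2 against 0.048 mg/mL. With the replicate number as a block 165 of the 166 calls were kept, SLC25A16 in the difference between doses being the exception; the numbers mark no pairing, as 9 of 21 libraries correlated best with their own number. Depth limits the carriers below 1 CPM, SLC25A18, SLC25A32, SLC25A34 and SLC25A52.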
